A study of Mus musculus with 48 samples.

Results

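The circadian output genes described here are 9 genes that the core clock drives in the liver: Dbp, Tef, Hlf, Nfil3, Ciart, Bhlhe40, Bhlhe41, Usp2 and Wee1. They were taken by symbol from the read counts of 48 livers, and 9 of 9 were found among 29221 genes. Dbp lies at chr7:45705088-45710203, Tef at chr15:81802421-81826863, Hlf at chr11:90336536-90390895, Nfil3 at chr13:52967209-52981073, Ciart at chr3:95878503-95882251, Bhlhe40 at chr6:108660629-108666925, Bhlhe41 at chr6:145858243-145865558, Usp2 at chr9:44067021-44095627 and Wee1 at chr7:110122046-110143286 (build GRCm38), and each is protein coding. All mice carried a floxed Pparg gene and were adults; their strain, their age at tissue collection and the time of day of collection are not given in the labels used here. At week 16 on diet they received AAV8-TBG-Cre, a viral vector that expresses Cre recombinase from the hepatocyte-specific TBG promoter, or AAV8-TBG-null as control. Cells other than hepatocytes were therefore not targeted, although whole liver RNA was sequenced. Females were fed a low fat diet (LF) or a high fat diet (HF) for 34 weeks, or the HF diet for 18 weeks followed by 16 weeks of a diet rich in fat, cholesterol and fructose (HFCF). Males were fed HF or HFCF on the same schedule. Each combination of sex, diet and vector is 1 group, with 6 livers in each of the 4 male groups and 4 livers in each of the 6 female groups.

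In the liver clock, the proteins CLOCK and ARNTL (also called BMAL) bind E-box elements and raise transcription, and the PER and CRY proteins made as a result shut them off again. Output genes carry this rhythm to metabolism. Dbp, Tef and Hlf encode the PAR bZIP factors, activators that bind D-box elements near genes of drug, lipid and bile acid metabolism, and Nfil3 encodes a repressor that competes for the same D-boxes. Ciart (also called Chrono), Bhlhe40 and Bhlhe41 encode repressors that act on CLOCK and ARNTL or on their E-boxes. Usp2 encodes a deubiquitinating enzyme and Wee1 a kinase that holds back entry into mitosis, and both are clock-driven in liver.

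Promoters were searched for known clock elements. RefSeq (build GRCm38.p6) gave a promoter, 250 bases before to 50 bases after the start, for 7 of the 9 genes. The search covered both strands and the E-box CACGTG, its variant CACGTT, the D-boxes TTATGTAA and TTACGTAA, and TAGGTCA, an element bound by ROR and REV-ERB receptors. No match overlapped a match of another motif. CACGTG was present 3 times in Ciart, once at each of the 2 Tef starts and once in Bhlhe41, and TAGGTCA was present in Nfil3 on the opposite strand. Of 32851 promoters of the same length, 7.15% hold CACGTG, 4.68% CACGTT, 0.938% TTATGTAA, 0.119% TTACGTAA and 2.61% TAGGTCA. Dbp, Hlf and Usp2 held none of these letters in this window. The stretches around the matches are given here 5′ to 3′ on the gene's strand with the motif in capitals, because they are the members' only matches: E-boxes in an activator and in repressors of the clock, and the receptor element in the D-box repressor. Ciart is chr3:95882252-95882388 (minus strand), upstream of the annotated gene. Tef start 1 is chr15:81802533-81802562 (plus strand), in the first exon, a 5′ UTR, of a longer GENCODE transcript. Tef start 2 is chr15:81811254-81811413 (plus strand), in an intron of the longer transcript. Bhlhe41 is chr6:145865559-145865620 (minus strand), upstream of the annotated gene, and Nfil3 is chr13:52981040-52981069 (minus strand), in the 5′ UTR of the GENCODE model.
Ciart: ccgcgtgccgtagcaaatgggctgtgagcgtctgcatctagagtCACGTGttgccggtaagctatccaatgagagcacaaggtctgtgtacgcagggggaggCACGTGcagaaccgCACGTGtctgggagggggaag
Tef start 1: ggtgctgtggctcCACGTGctgcagctggc
Tef start 2: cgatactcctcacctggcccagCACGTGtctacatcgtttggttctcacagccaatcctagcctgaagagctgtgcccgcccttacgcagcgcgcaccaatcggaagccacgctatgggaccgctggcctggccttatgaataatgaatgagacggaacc
Bhlhe41: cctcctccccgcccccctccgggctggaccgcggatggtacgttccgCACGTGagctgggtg
Nfil3: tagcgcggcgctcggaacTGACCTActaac

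Library depth ran from 15338239 to 22072884 reads on genes. Cidec, a lipid droplet gene regulated by PPARG, checked the vector: it was 5.22 CPM (counts scaled to a common library size) in labelled-knockout HF males against 134 in their controls, 27.0 against 162 in HFCF males, 12.0 against 64.7 in HFCF females, and 3.69 against 21.8 in HF females. The difference in HF females was not called (edgeR adjusted p = 0.522), and the mean of their controls rested on replicate 1 at 56.5 CPM, without which it was 10.2. In LF females it was low in both, at 6.06 against 6.90, and so gave no check there. Pparg itself was not lower in any labelled-knockout group (in HFCF males it was 56.3 against 32.3 CPM), and whole-gene counts do not separate the deleted exons from the rest, so the Cre groups are called labelled knockouts. Livers expressed 7 of 7 hepatocyte markers in every group, with summed levels of 41540.0 to 125300.0 CPM over all libraries, and Adipoq and Plin1, markers of fat cells, summed to at most 0.134 CPM. The libraries that stood apart in scaling were in HFCF groups: the trimmed-mean-of-M-values (TMM) factor was 0.899 for female labelled-knockout replicate 1 against 1.08 to 1.15 in its group, and 0.945 for male control replicate 1 against 1.09 to 1.18.

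Levels are given as CPM scaled with TMM factors, and between genes they are compared per kilobase of the annotated exon length. Over the 48 livers the mean was 46.3 CPM per kilobase for Dbp, 34.2 for Bhlhe40, 32.4 for Tef, 13.0 for Hlf, 8.52 for Nfil3, 6.44 for Usp2, 6.38 for Wee1, 3.63 for Ciart and 0.411 for Bhlhe41. Bhlhe41, with 1 to 128 reads per library, was the least precisely measured. Dbp overlaps Sphk2 on the other strand, which had up to 1635 reads, and since the libraries did not keep strand, reads of the shared stretch cannot be told apart. Partners of the other 6 overlapping members (Ciart, Tef, Wee1, Bhlhe41, Bhlhe40 and Usp2) had at most 33 reads.

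The range over the 10 groups differed between members. The highest group mean over the lowest was 7.79 for Ciart, 7.10 for Bhlhe41, 3.78 for Usp2, 2.92 for Wee1, 2.80 for Dbp, 2.58 for Tef, 2.18 for Hlf, 1.94 for Nfil3 and 1.52 for Bhlhe40. Dbp, Tef and Ciart were highest in female HF labelled knockouts, and Hlf, Bhlhe40, Usp2 and Wee1 in female HF controls. HFCF groups held the lowest mean for Dbp, Tef, Hlf, Nfil3, Ciart, Bhlhe40 and Usp2. Wee1 and Bhlhe41 were instead lowest in LF females, and Nfil3 was highest there. Neighbouring groups in this order overlapped in nearly all cases: of 9 neighbour pairs per gene, 1 did not overlap for Dbp, 1 for Hlf and 1 for Usp2, and 0 for the other 6 genes. Livers of 1 group also differed more for some members: the median coefficient of variation within a group was 43.6% for Ciart, 37.4% for Usp2, 35.2% for Bhlhe41, 20.9% for Wee1, 16.8% for Dbp, 15.8% for Nfil3, 14.8% for Tef, 12.6% for Hlf and 11.1% for Bhlhe40. Over the 13440 genes whose mean reached 1 CPM that median was 12.5%, with quartiles of 8.91% and 21.5%.

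**Figure D1:**
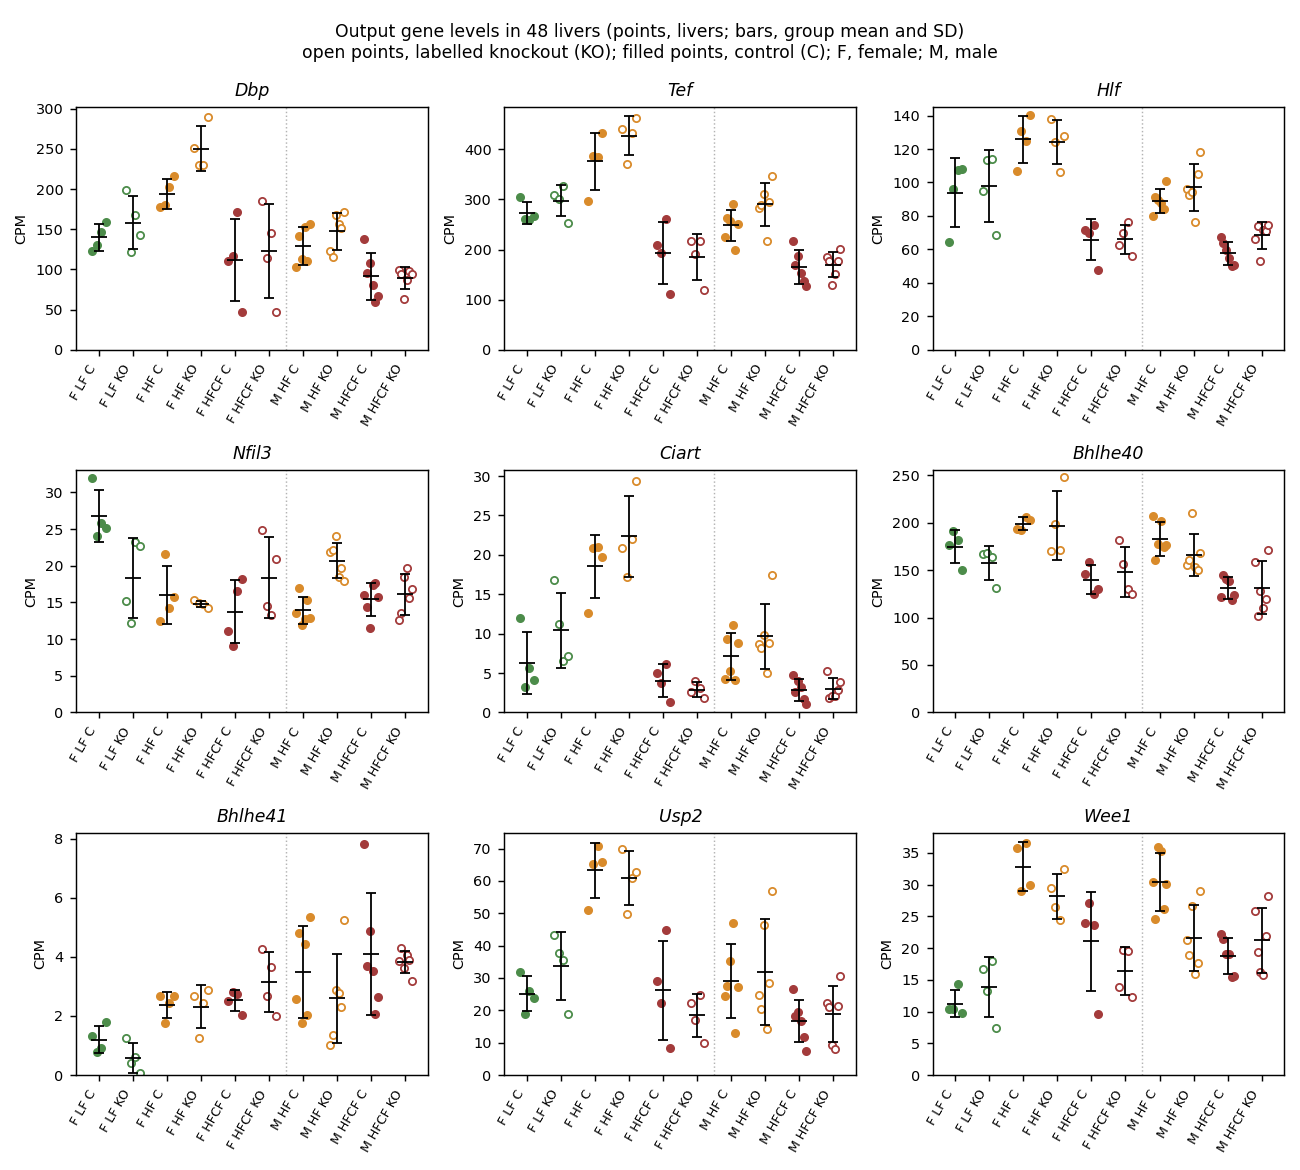
Level of each output gene in CPM (vertical axes, linear, from 0) in the 48 livers by group (horizontal axes: F, female; M, male; C, control; KO, labelled knockout). Points are livers and bars are the group mean and SD. HF females stand highest for Dbp, Tef, Hlf, Ciart and Usp2, and HFCF groups stand low for the same genes.

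HF feeding was set against LF feeding in females, which asks how long-term high fat feeding alone shifted these genes. In controls, 2 of 9 members rose, Wee1 and Usp2, and 0 fell, where 0.696% of 14216 genes were called, 0.443% as higher. A gene was called where edgeR's quasi-likelihood F test gave a p under 0.05 after Benjamini-Hochberg adjustment over every gene in the fit. A further 6 members had an unadjusted p under 0.05 without passing, and the share of all genes at that p is not given. The median log2 difference was 0.47 for the 9 members and -0.00 over all genes.

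Wee1, the mitosis-delaying kinase, was 10.4, 10.5, 14.3 and 9.80 CPM in the 4 LF controls and 35.8, 29.02, 36.6 and 30.01 in the 4 HF controls. All HF livers stood above all LF livers, and Wee1 rose 2.91 times (log2 difference 1.54 ± 0.14 SE, edgeR adjusted p = 0.00329). Usp2 was 31.7, 18.8, 26.1 and 23.95 CPM in LF and 51.1, 65.2, 70.9 and 65.8 in HF controls, again with no overlap, and it rose 2.50 times (log2 difference 1.32 ± 0.16 SE, edgeR adjusted p = 0.0114). Ciart read 12.04, 3.25, 5.66 and 4.08 CPM in LF and 12.7, 20.8, 21.04 and 19.7 in HF controls. The groups of Ciart did not overlap, although LF replicate 1 came close to HF replicate 1, and the difference was not called (log2 difference 1.55 ± 0.37 SE, edgeR adjusted p = 0.0928).

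The PAR bZIP activators stood higher by smaller amounts that were not called in HF controls. Dbp read 123, 130.3, 147 and 159 CPM in LF and 177, 181, 202 and 217 in HF controls, without overlap (log2 difference 0.47 ± 0.11 SE, edgeR adjusted p = 0.0801). The differences of Tef and Hlf were 0.45 ± 0.13 and 0.42 ± 0.15 on the log2 scale (SE), with edgeR adjusted p = 0.127 and 0.229 and overlapping groups. Their competitor Nfil3 stood the other way, at 31.9, 23.997, 25.8 and 25.2 CPM in LF and 12.4, 21.6, 14.3 and 15.7 in HF controls, without overlap and not called (log2 difference -0.75 ± 0.17 SE, edgeR adjusted p = 0.0801). The differences of Bhlhe41 and Bhlhe40 were 0.97 and 0.18 (log2), with edgeR adjusted p = 0.176 and 0.379. Bhlhe40 did not overlap between the diets, at 176, 191, 182 and 150.0 CPM in LF and 193, 193, 206 and 203 in HF controls. The share of all genes without overlap is not given for any comparison. Whether lack of overlap is unusual in groups of this size is therefore not known, and it does not stand in for a call.

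Labelled-knockout females gave 0 of 9 members called by edgeR for HF against LF, where 0.155% of 14214 genes were called, and 8 of 9 had an unadjusted p under 0.05. DESeq2's Wald test called 6, all higher in HF. The 0.155% holds for edgeR alone, and for the unadjusted p and the Wald test no share of all genes is given. Wee1 was 16.6, 13.2, 18.02 and 7.45 CPM in LF and 29.4, 26.5, 24.4 and 32.5 in HF labelled knockouts (log2 difference 1.03 ± 0.22 SE, edgeR adjusted p = 0.0933). Usp2 was 43.3, 37.6, 35.4 and 18.7 and 69.8, 49.7, 60.9 and 62.8 CPM (log2 difference 0.86 ± 0.21 SE, edgeR adjusted p = 0.125). In neither gene did the groups overlap. Bhlhe41 was 1.24, 0.401, 0.613 and 0.0596 CPM in LF, where replicate 4 had 1 read, and 2.69, 1.26, 2.45 and 2.87 in HF (log2 difference 1.99 ± 0.57 SE, edgeR adjusted p = 0.162). The test of the difference between the diet effects in labelled knockouts and controls called 0 of 9 members by edgeR (0.0% of 14938 genes), 0 at an unadjusted p under 0.05, and 0 by DESeq2.

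These HF against LF counts depended on the test. DESeq2's Wald test called 6 members in controls, and edgeR without a filter on low counts called 4 in controls and 2 in labelled knockouts. In the authors' deposited table, adjusted p was 0.00531 for Dbp, 0.0242 for Tef, 0.00629 for Nfil3, 0.00139 for Ciart, 1.59e-10 for Usp2 and 9.29e-18 for Wee1 in control females. Over all genes, 622 had an adjusted p under 0.05 in that table and 450 in the authors' one for labelled knockouts. Shares of all genes at an unadjusted p under 0.05, or called by the Wald test run here, are not given for any comparison. Leaving out 1 liver gave 1 to 3 called members in controls: Usp2 was not called without LF control replicate 4 or without HF control replicate 3, and Nfil3 was called without HF control replicate 2 and Ciart without LF control replicate 1. In labelled knockouts, 2 members (Dbp and Ciart) were called without LF labelled-knockout replicate 1. The share of all genes called ran from 0.069% (without HF control replicate 3) to 0.777% in controls and from 0.0% to 0.859% (without LF replicate 1) in labelled knockouts.

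HFCF feeding was set against continued HF feeding in 4 settings, which asks what the switch to cholesterol and fructose did on top of fat. In all 4 settings Tef, Hlf and Ciart fell. Female controls had 5 of 9 members lower (Tef, Hlf, Ciart, Bhlhe40 and Usp2; 30.8% of 14701 genes called), and labelled-knockout females 5 of 9 (Tef, Hlf, Ciart, Usp2 and Wee1; 14.5% of 14650). Male controls had 5 of 9 lower (Tef, Hlf, Ciart, Bhlhe40 and Wee1; 22.3% of 14475), and labelled-knockout males 6 of 9 (Dbp, Tef, Hlf, Nfil3, Ciart and Bhlhe40; 41.7% of 14314). No member rose in any of the 4 with these settings and all livers. Leaving out 1 liver moved these shares of all genes to between 16.5% (without HFCF control replicate 2) and 43.6% (without HF control replicate 1) in female controls, and between 5.82% (without HFCF replicate 4) and 29.1% (without HFCF replicate 1) in labelled-knockout females. In males they ran from 15.2% to 37.0% in controls, the highest without HFCF replicate 1, and from 35.5% to 41.7% in labelled knockouts. The lower calls alone took 13.8%, 6.01%, 9.31% and 20.0% of all genes in that order. The median log2 difference of the 9 members was -0.78, -0.90, -0.58 and -0.50 in that order, against -0.02, -0.01, 0.01 and -0.02 over all genes tested.

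Ciart, a repressor of CLOCK and ARNTL, fell most. Female HFCF controls read 4.99, 3.78, 6.11 and 1.28 CPM, all below the HF controls given above (log2 difference -2.17 ± 0.37 SE, edgeR adjusted p = 0.00604). Female labelled knockouts read 20.8, 17.1, 22.1 and 29.4 CPM on HF and 2.54, 4.03, 3.12 and 1.79 on HFCF. The lowest HF liver stood over 4 times the highest HFCF liver, and Ciart fell by 2.95 ± 0.25 on the log2 scale (SE; edgeR adjusted p = 0.00108). Male controls ranged over 4.10 to 11.05 CPM with a median of 7.06 on HF and over 1.08 to 4.76 CPM with a median of 2.93 on HFCF. These male ranges overlapped (log2 difference -1.30 ± 0.33 SE, edgeR adjusted p = 0.012). Labelled-knockout males ranged over 5.03 to 17.4 CPM with a median of 8.76 on HF and 1.80 to 5.23 CPM with a median of 2.46 on HFCF, with overlap between single livers (log2 difference -1.70 ± 0.29 SE, edgeR adjusted p = 0.000311).

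Tef, one of the PAR bZIP activators, was 297, 387, 385 and 433 CPM in female HF controls and 208, 194, 262 and 112 in HFCF controls. It read 441, 372, 432 and 463 CPM in female HF labelled knockouts and 217, 191, 216 and 118 in HFCF labelled knockouts. No HFCF liver reached an HF liver in either pair, and Tef fell in both (log2 -0.93 ± 0.23, edgeR adjusted p = 0.016, and -1.20 ± 0.18, adjusted p = 0.00426). Male controls ranged over 200.1 to 290.0 CPM with a median of 255 on HF and 128 to 217 CPM with a median of 161 on HFCF, with overlap (log2 difference -0.58 ± 0.12 SE, edgeR adjusted p = 0.00422). Labelled-knockout males ranged over 216 to 346 CPM with a median of 292 and 129 to 201 CPM with a median of 177, without overlap (log2 difference -0.77 ± 0.11 SE, edgeR adjusted p = 8.7e-05).

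Hlf, the PAR bZIP member with the smallest spread, was 107, 131, 125 and 140.3 CPM in female HF controls and 71.6, 69.7, 74.4 and 47.96 in HFCF controls. Labelled-knockout females read 138, 124, 106 and 128 CPM on HF and 62.8, 69.6, 76.1 and 56.2 on HFCF. The groups of Hlf did not overlap in any of the 4 settings, males included. Its log2 differences were -0.91 ± 0.14 and -0.90 ± 0.12 in control and labelled-knockout females and -0.62 ± 0.08 and -0.50 ± 0.10 in control and labelled-knockout males (SE), with edgeR adjusted p = 0.00546, 0.00271, 0.000392 and 0.000934.

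Dbp, the third activator, fell in labelled-knockout males, from 116 to 171 CPM with a median of 154 on HF to 62.6 to 99.3 CPM with a median of 94.1 on HFCF (log2 difference -0.72 ± 0.12 SE, edgeR adjusted p = 0.000199). Those 2 groups did not overlap. Female HFCF controls read 111, 117, 172 and 46.4 CPM and female HFCF labelled knockouts 185, 114, 145 and 47.5, the latter against 251, 229.6, 230.4 and 289 on HF. All female HFCF livers were below all HF livers of the same vector, but the spread among them was wide and Dbp was not called (log2 -0.78 ± 0.31, edgeR adjusted p = 0.0794, and -1.03 ± 0.32, adjusted p = 0.0551). Without HFCF control replicate 3, Dbp was called in female controls. Male controls were also not called (log2 difference -0.49 ± 0.18 SE, edgeR adjusted p = 0.0573).

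Usp2, the deubiquitinating enzyme, was 28.9, 22.4, 44.9 and 8.33 CPM in female HFCF controls and 22.3, 17.1, 24.7 and 9.74 in female HFCF labelled knockouts. All 8 stood below the HF livers given above, and Usp2 fell in both pairs (log2 -1.25 ± 0.38, edgeR adjusted p = 0.0357, and -1.72 ± 0.24, adjusted p = 0.00325). Male controls ranged over 13.1 to 47.01 CPM with a median of 27.4 on HF and 7.42 to 26.6 CPM with a median of 17.5 on HFCF, with overlap. In males the differences of Usp2 were -0.79 ± 0.28 and -0.76 ± 0.34, not called, with edgeR adjusted p = 0.0572 and 0.0875. Wee1 fell in male controls, where it ranged over 24.6 to 35.97 CPM with a median of 30.2 on HF and 15.5 to 22.2 CPM with a median of 19.1 on HFCF without overlap (log2 difference -0.69 ± 0.11 SE, edgeR adjusted p = 0.00158). It also fell in labelled-knockout females, from 29.4, 26.5, 24.4 and 32.5 CPM to 13.9, 19.7, 19.5 and 12.3, without overlap (log2 difference -0.77 ± 0.17 SE, edgeR adjusted p = 0.0155). Female controls gave a Wee1 difference of -0.62 ± 0.26 without overlap, not called (edgeR adjusted p = 0.0959), and labelled-knockout males one of -0.02 ± 0.17 (edgeR adjusted p = 0.933).

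The repressors other than Ciart differed among themselves. Bhlhe40 fell in female controls, from 193, 193, 206 and 203 CPM on HF to 146, 158, 124 and 130.5 on HFCF, without overlap (log2 difference -0.49 ± 0.09 SE, edgeR adjusted p = 0.00643). In control males it ranged over 160.5 to 207 CPM with a median of 177 on HF and 118 to 145 CPM with a median of 131 on HFCF, and it fell without overlap (log2 difference -0.47 ± 0.08 SE, edgeR adjusted p = 0.00146). In labelled-knockout males the ranges of 150.2 to 210.1 CPM with a median of 158 and 102 to 171 CPM with a median of 124 overlapped, and Bhlhe40 fell (log2 difference -0.33 ± 0.12 SE, edgeR adjusted p = 0.0412), while labelled-knockout females gave -0.41 ± 0.16 (edgeR adjusted p = 0.107). Bhlhe41 gave log2 differences of 0.11, 0.44, 0.23 and 0.56 in female controls, female labelled knockouts, male controls and male labelled knockouts, none called, with edgeR adjusted p = 0.729, 0.399, 0.66 and 0.122. Without male HF labelled-knockout replicate 6, Bhlhe41 was called higher on HFCF in labelled-knockout males (edgeR adjusted p = 0.00663). Its highest levels were in males, at 2.05 to 7.82 CPM with a median of 3.62 in HFCF controls and 3.20 to 4.31 CPM with a median of 3.88 in HFCF labelled knockouts. Nfil3, the D-box repressor, ranged over 17.97 to 24.02 CPM with a median of 20.8 on HF and 12.6 to 19.7 CPM with a median of 16.2 on HFCF in labelled-knockout males, with overlap, and fell (log2 difference -0.36 ± 0.11 SE, edgeR adjusted p = 0.0195). In the other 3 settings Nfil3 differed by -0.19, 0.31 and 0.16 (log2), with edgeR adjusted p = 0.564, 0.297 and 0.338.

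**Figure D2:**
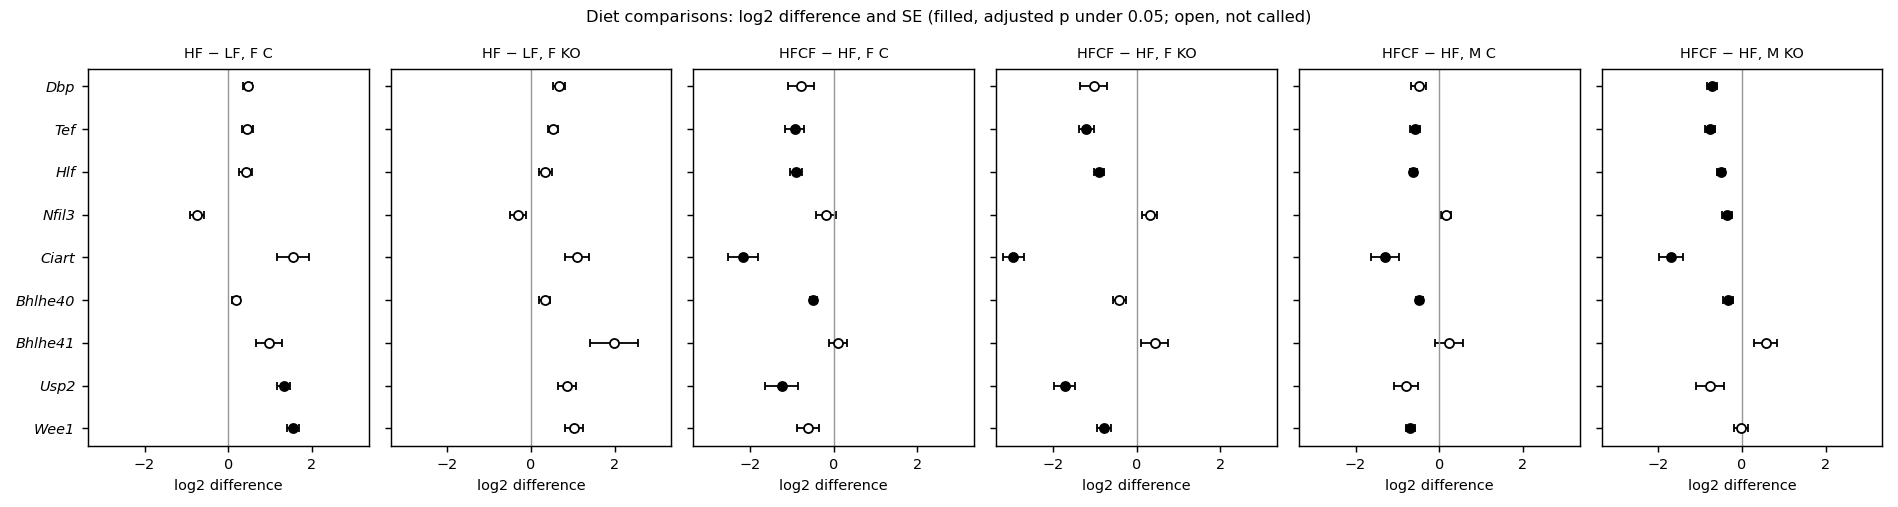
Log2 difference (horizontal axis) and its SE for the 9 output genes in 6 diet comparisons, HF minus LF in females and HFCF minus HF in both sexes (C, control; KO, labelled knockout); filled points are called. HF minus LF is positive for all genes but Nfil3, and HFCF minus HF is negative for Dbp, Tef, Hlf, Ciart, Bhlhe40 and Usp2 in all 4 panels.

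One liver in each female HFCF group stood low. Control replicate 5 was the lowest of its group for 7 of 9 members and labelled-knockout replicate 4 for 8 of 9. In these livers Arntl, the E-box activator, was 9.72 and 9.59 CPM, against 2.49 to 3.47 in the other control livers and 4.17 to 5.15 in the other labelled knockouts. Per3, a clock gene driven by E-boxes, was 23.7 and 30.2 CPM there, against 69.0 to 107 and 50.7 to 78.0. Without control replicate 5 the log2 difference was -1.88 (edgeR adjusted p = 0.016) for Ciart, -0.74 (edgeR adjusted p = 0.0218) for Tef, -0.78 (edgeR adjusted p = 0.016) for Hlf and -0.96 (edgeR adjusted p = 0.0292) for Usp2. Leaving out labelled-knockout replicate 4 gave -2.77 (edgeR adjusted p = 0.00346) for Ciart, -1.04 (edgeR adjusted p = 0.00659) for Tef, -0.83 (edgeR adjusted p = 0.0106) for Hlf and -1.51 (edgeR adjusted p = 0.00501) for Usp2, and Dbp was then called at -0.76 (edgeR adjusted p = 0.035). Without labelled-knockout replicate 1, which stood apart in scaling, Dbp was -1.28 (edgeR adjusted p = 0.0132) and Bhlhe40 -0.51 (edgeR adjusted p = 0.0248). Without male control replicate 1, Dbp was -0.65 (edgeR adjusted p = 0.00304) and Usp2 -0.97 (edgeR adjusted p = 0.0106). Other livers also ended single calls: Usp2 in female controls was not called without any 1 of 5 livers (HF control replicates 2, 3 and 4 and HFCF control replicates 1 and 2), and Bhlhe40 in labelled-knockout males without any 1 of 7. In males, HFCF control replicates 5 and 6 were lowest of their group for 5 and 3 of 9 members. Their Arntl was 11.1 and 11.8 CPM, against 5.31 to 7.06 in the rest of the group. Their Per3 was 23.0 and 26.0 CPM, against 31.7 to 49.7. Male HFCF labelled-knockout replicate 3 read 9.66 CPM for Arntl and 29.5 for Per3, and replicate 4 read 7.84 and 28.1. The labels number male HFCF control replicates 5 and 6 and labelled-knockout replicate 3 consecutively, but not labelled-knockout replicate 4. Female HFCF control replicate 5 and labelled-knockout replicate 4 also carry close numbers, apart from those of the rest of their groups. Female HF control replicate 1 and LF labelled-knockout replicate 4 were lowest for 6 of 9 each.

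Cell type markers moved with the HFCF diet. Of 9 Kupffer cell and macrophage markers, 6, 3, 6 and 7 rose in female controls, female labelled knockouts, male controls and male labelled knockouts, and 0, 0, 0 and 1 fell. Their summed level was 298 to 519.8 CPM in female HF controls and 796 to 950.3 in female HFCF controls. In labelled-knockout females it was 349 to 687 on HF and 698 to 941 on HFCF, in male controls 240.2 to 466.5 and 421 to 846, and in labelled-knockout males 360.5 to 496 and 614 to 1013. All 4 biliary markers rose in all 4 settings, 1, 3, 2 and 3 of 4 stellate cell markers rose and 3, 1, 1 and 2 of 4 endothelial markers rose. In labelled-knockout males 3 of 3 erythroid markers fell, from sums of 154 to 720.2 CPM on HF to 161 to 224 on HFCF, 2 of 2 neutrophil markers tested rose and 1 of 5 T cell markers rose. Of 7 hepatocyte markers, 6, 0, 4 and 7 fell, and their sum was 93150.0 to 115800.0 CPM in female HF controls and 55760.0 to 70560.0 in female HFCF controls. The part of this shift in the output genes was not tested, and in whole liver fewer cells of a type and less RNA per cell cannot be told apart. Scaling by library totals in place of TMM factors moved the median log2 difference of all genes by 0.21, 0.16, 0.12 and 0.20 in the same 4 settings and by 0.21 and 0.17 for HFCF against LF, and by less than 0.1 elsewhere. With library totals, Bhlhe40 and Usp2 in female controls, Wee1 in labelled-knockout females and Nfil3 and Bhlhe40 in labelled-knockout males were no longer called, and none of these changed sign, while Bhlhe41 in labelled-knockout males was then called higher (log2 0.77, edgeR adjusted p = 0.0403). The share of all called genes that were higher in HFCF went from 55%, 58.4%, 58.2% and 51.9% to 82.5%, 79.6%, 80.6% and 84.9% in these 4 settings.

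Other clock genes were followed as a list of 18, of which 17 were tested here. For HFCF against HF, 3 of 17 rose in each of the 4 settings and 5, 6, 7 and 8 fell, with 12, 10, 12 and 12 at an unadjusted p under 0.05. Arntl, the partner of CLOCK, rose in female controls from 1.36 ± 0.520 to 4.76 ± 3.33 CPM (SD, n = 4; log2 difference 1.82 ± 0.48 SE, edgeR adjusted p = 0.0203). Npas2, which can stand in for CLOCK, rose alongside (log2 difference 2.91 ± 0.78 SE, edgeR adjusted p = 0.0225). Without HFCF control replicate 5 these differences were 1.21 for Arntl and 1.80 for Npas2 (edgeR adjusted p = 0.041 and 0.0365). Meanwhile Per3 fell from 145 ± 13.4 to 67.4 ± 34.1 CPM (log2 difference -1.08 ± 0.35 SE, edgeR adjusted p = 0.0407). Male controls gave the same directions for Arntl (log2 difference 1.07 ± 0.31 SE, edgeR adjusted p = 0.0243), Npas2 (log2 difference 1.39 ± 0.36 SE, edgeR adjusted p = 0.0134) and Per3 (log2 difference -0.79 ± 0.17 SE, edgeR adjusted p = 0.00517). Per2, also a repressor of CLOCK, fell in control and labelled-knockout males (log2 difference -0.65 ± 0.11 SE, edgeR adjusted p = 0.00162, and log2 -0.68, adjusted p = 0.000217). For HF against LF in female controls the signs were opposite: Arntl fell (log2 difference -1.79 ± 0.32 SE, edgeR adjusted p = 0.0423) and Npas2 fell (log2 difference -2.44 ± 0.44 SE, edgeR adjusted p = 0.0423), while Per3 rose (log2 difference 0.998 ± 0.09 SE, edgeR adjusted p = 0.00329) and Per2 rose (log2 difference 0.88 ± 0.10 SE, edgeR adjusted p = 0.00879). This makes 2 higher and 2 lower of 17, and labelled-knockout females had 0 called by edgeR with 8 at an unadjusted p under 0.05. The HF against LF and HFCF against HF comparisons share the HF livers. In control females Arntl averaged 4.71 CPM on LF, 1.36 on HF and 4.76 on HFCF, and Per3 averaged 72.4, 145 and 67.4. For HFCF against LF in control females, Arntl and Per3 were not called. Fbxl21, Nr1d1 and Cry2 were lower there (log2 -0.89, -0.49 and -0.37, edgeR adjusted p = 0.00522, 0.0242 and 0.0472). With no collection times in the labels used here, a shift in clock phase between groups and a change in level cannot be told apart.

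**Figure D3:**
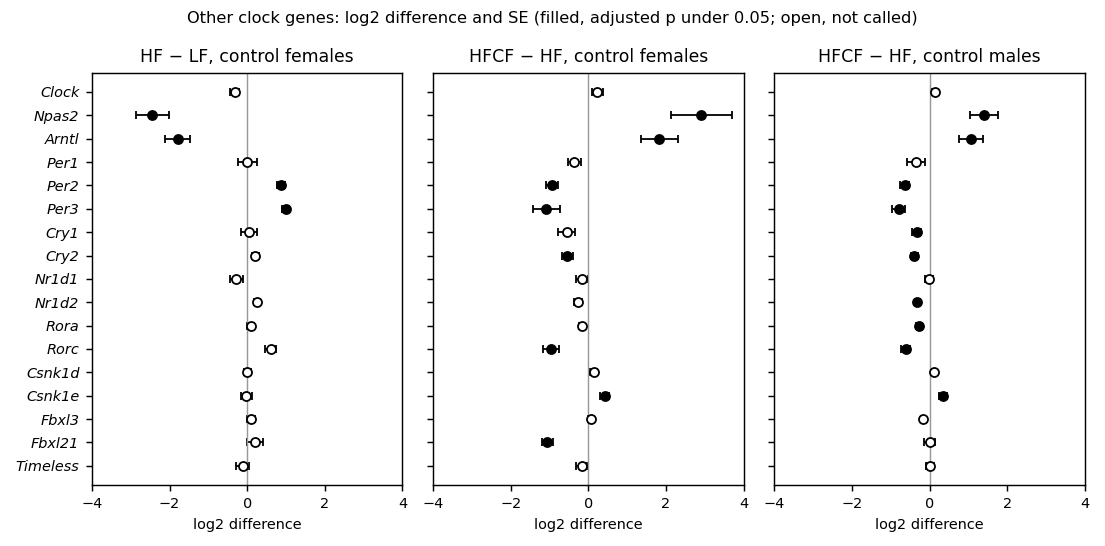
Log2 difference (horizontal axis) and SE of 17 other clock genes for HF minus LF in control females and HFCF minus HF in control females and males; filled points are called. Npas2 and Arntl lie left of 0 for HF minus LF and right of 0 for HFCF minus HF, and Per2 and Per3 lie on the opposite sides.

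Genes known in liver as targets of the PAR bZIP factors were followed as a list of 15. For HFCF against HF, 6 of 14 tested fell and 0 rose in female controls, 6 of 14 fell and 0 rose in labelled-knockout females, 5 of 14 fell and 1 rose in male controls, and 4 of 15 fell and 4 rose in labelled-knockout males. Nr1i3, which encodes the xenobiotic receptor CAR, fell in all 4: female controls went from 166 ± 39.9 to 64.3 ± 21.1 CPM (SD, n = 4; log2 difference -1.35 ± 0.25 SE, edgeR adjusted p = 0.00694), labelled-knockout females gave a log2 difference -1.47 ± 0.16 SE, edgeR adjusted p = 0.00159, male controls a log2 difference -0.97 ± 0.19 SE, edgeR adjusted p = 0.00341 and labelled-knockout males a log2 difference -0.82 ± 0.12 SE, edgeR adjusted p = 6.34e-05. Ces1d, a carboxylesterase, fell in female controls (log2 difference -1.02 ± 0.23 SE, edgeR adjusted p = 0.0127) and labelled-knockout females (log2 difference -1.01 ± 0.19 SE, edgeR adjusted p = 0.00914). Cyp7a1, the rate-limiting enzyme of bile acid synthesis, instead rose in male controls from 78.9 ± 25.9 to 155 ± 58.9 CPM (SD, n = 6; log2 difference 0.99 ± 0.26 SE, edgeR adjusted p = 0.0147) and in labelled-knockout males (log2 difference 0.97 ± 0.22 SE, edgeR adjusted p = 0.00213). Cyp2a4 and Cyp2a5 fell in labelled-knockout females (log2 difference -1.77 ± 0.20 SE, edgeR adjusted p = 0.00159, and log2 -1.19, adjusted p = 0.0191), but these are near-identical copies whose reads may be split between them. For HF against LF, 0 of 14 were called in controls (8 at an unadjusted p under 0.05) and 1 fell in labelled knockouts, Acot1, a thioesterase with the close copy Acot2 (log2 difference -1.38 ± 0.22 SE, edgeR adjusted p = 0.0469).

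HFCF feeding was also set against LF feeding in females. Controls had 5 of 9 members called (35.2% of 14755 genes): Bhlhe41 and Wee1 rose and Hlf, Nfil3 and Bhlhe40 fell. Bhlhe41 was 1.33, 0.780, 0.903 and 1.80 CPM in LF and 2.49, 2.82, 2.75 and 2.03 in HFCF controls, without overlap (log2 difference 1.04 ± 0.29 SE, edgeR adjusted p = 0.0199). Nfil3 read 11.1, 9.11, 16.6 and 18.2 CPM in HFCF controls, all below the LF livers (log2 difference -0.98 ± 0.21 SE, edgeR adjusted p = 0.00633). Wee1 was 23.9, 27.1, 23.6 and 9.67 CPM in HFCF controls, where replicate 5 lay below all 4 LF livers and the other 3 above them (log2 difference 0.89 ± 0.27 SE, edgeR adjusted p = 0.0281). Hlf and Bhlhe40 overlapped between the diets (log2 -0.52 ± 0.17, edgeR adjusted p = 0.0384, and -0.34 ± 0.11, adjusted p = 0.0341). Of 8 fits that each left out 1 liver, Nfil3 was called in 8, Bhlhe41 in 6, Wee1 in 3, Bhlhe40 in 2 and Hlf in 1.

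Labelled-knockout females had 3 of 9 members called for HFCF against LF (12.0% of 14614 genes). Bhlhe41 rose 5.43 times (log2 difference 2.44 ± 0.53 SE, edgeR adjusted p = 0.0145), from the low LF values given above to 4.28, 2.68, 3.66 and 2.0001 CPM, and without LF replicate 1 the ratio was 8.77. Ciart fell from 16.8, 11.2, 6.50 and 7.15 CPM to the HFCF values given above, without overlap (log2 difference -1.83 ± 0.33 SE, edgeR adjusted p = 0.00663). Tef fell from 309, 301, 327 and 254 CPM, again without overlap (log2 difference -0.66 ± 0.18 SE, edgeR adjusted p = 0.0364). Of 8 fits that each left out 1 liver, Ciart was called in 8, Bhlhe41 in 7 and Tef in 2, Tef being lost without LF replicate 1, 2 or 3 or HFCF replicate 2, 3 or 4. Without LF replicate 2, 1 member (Ciart) was called, and without LF replicate 4 or HFCF replicate 1, 5 were, Hlf and Usp2 being added. The share of all genes called ran from 23.2% to 37.9% in controls and from 4.61% (without HFCF replicate 2) to 23.8% (without HFCF replicate 1) in labelled knockouts when 1 liver was left out. Markers moved here too: in controls 7 of 7 hepatocyte markers fell, and 6 of 9 Kupffer cell and macrophage, 4 of 4 stellate cell, 4 of 4 biliary and 3 of 4 endothelial markers rose. In labelled knockouts 0 of 7 hepatocyte markers fell, while 6 of 9 Kupffer cell and macrophage (1 fell), 2 of 4 stellate cell and 4 of 4 biliary markers rose. Their part in the members' differences was not tested. The 3 diet comparisons in females share their livers. For HFCF against LF, library totals moved the share of all called genes that were higher from 52.3% to 83.5% in controls and from 68.8% to 84.7% in labelled knockouts, and Hlf and Bhlhe40 in controls and Tef in labelled knockouts were then not called.

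The vector was compared within each sex and diet, which asks what loss of hepatocyte Pparg did to the output genes. In HF males 2 of 9 members were called, Nfil3 higher and Wee1 lower, where 18.5% of 14041 genes were called. Nfil3 ranged over 11.95 to 16.98 CPM with a median of 13.2 in controls and 17.97 to 24.02 CPM with a median of 20.8 in labelled knockouts. The ranges did not overlap, and Nfil3 rose 1.48 times (log2 difference 0.57 ± 0.10 SE, edgeR adjusted p = 0.000919). Wee1 ranged over 24.6 to 35.97 CPM with a median of 30.2 in controls and 15.9 to 29.1 CPM with a median of 20.1 in labelled knockouts, with overlap, and fell (log2 difference -0.50 ± 0.14 SE, edgeR adjusted p = 0.0203). Nfil3 was called in every fit that left out 1 liver. Wee1 was not called without control replicate 3 or without labelled-knockout replicate 5, nor with all 10 groups in 1 fit (edgeR adjusted p = 0.0772). With library totals the share of all called genes that were higher went from 46.5% to 23.4%, and both members kept their calls. In the same comparison 5 of 7 hepatocyte markers and 3 of 3 erythroid markers rose and 3 of 4 stellate cell markers fell, with erythroid sums of 152 to 221 CPM in controls and 154 to 720.2 in labelled knockouts. Their part in the Nfil3 and Wee1 differences was not tested.

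Among the other clock genes in HF males, Nr1d1, the REV-ERB receptor that represses Arntl and Nfil3, rose from 105 ± 15.4 to 135 ± 14.2 CPM (SD, n = 6; log2 difference 0.36 ± 0.09 SE, edgeR adjusted p = 0.0142). Cry2, a repressor of CLOCK and ARNTL, also rose (log2 difference 0.22 ± 0.06 SE, edgeR adjusted p = 0.0226), making 2 higher and 0 lower of 17. Of 15 PAR bZIP targets, 5 rose and 4 fell there. Cyp7a1 rose (log2 difference 1.01 ± 0.22 SE, edgeR adjusted p = 0.00459), Cyp2c50 rose (log2 difference 1.26 ± 0.14 SE, edgeR adjusted p = 3.22e-05) and Acot2, a mitochondrial thioesterase, fell (log2 difference -1.45 ± 0.17 SE, edgeR adjusted p = 4.59e-05).

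In the other 4 sex and diet settings edgeR called 0 of 9 members between labelled knockouts and controls. The share of all genes called was 2.21% in HFCF males, 0.0% in LF females, 0.0% in HF females and 0.0534% in HFCF females. Members at an unadjusted p under 0.05 numbered 1, 1, 1 and 0 in that order, and DESeq2 called 0 in each. Dbp was the member in HF females, at 177, 181, 202 and 217 CPM in controls and 251, 229.6, 230.4 and 289 in labelled knockouts, without overlap (log2 difference 0.39 ± 0.10 SE, edgeR adjusted p = 0.522). Nfil3 was the member in LF females, at 31.9, 23.997, 25.8 and 25.2 and 15.2, 12.2, 23.2 and 22.7 CPM, also without overlap and lower in labelled knockouts (log2 difference -0.53 ± 0.20 SE, edgeR adjusted p = 0.9996). How many of all genes lacked overlap in these settings is not given, so the lack of overlap adds no separate support. Hlf was the member in HFCF males (log2 difference 0.25 ± 0.09 SE, edgeR adjusted p = 0.202), and it was called there without labelled-knockout replicate 3.

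Whether the vector's effect differed between diets or sexes was tested as an interaction. edgeR called 0 of 9 members in each of 5 such tests, as did DESeq2, while 1.56% of 15096 genes were called for HFCF against HF in males and 0.0% in the other 4. In males, Nfil3 and Wee1 had unadjusted p under 0.05 between the diets, with interaction terms of -0.52 and 0.67 and edgeR adjusted p = 0.097 and 0.0991. On HF, Nfil3 was the only member with an unadjusted p under 0.05 between the sexes (0.67, edgeR adjusted p = 0.281), and it was called without female HF control replicate 1 (edgeR adjusted p = 0.0288). Without that liver 1.88% of all genes were called in the same test. For HFCF against HF in males the share of all genes ran from 0.78% to 2.7% when 1 liver was left out.

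**Figure D4:**
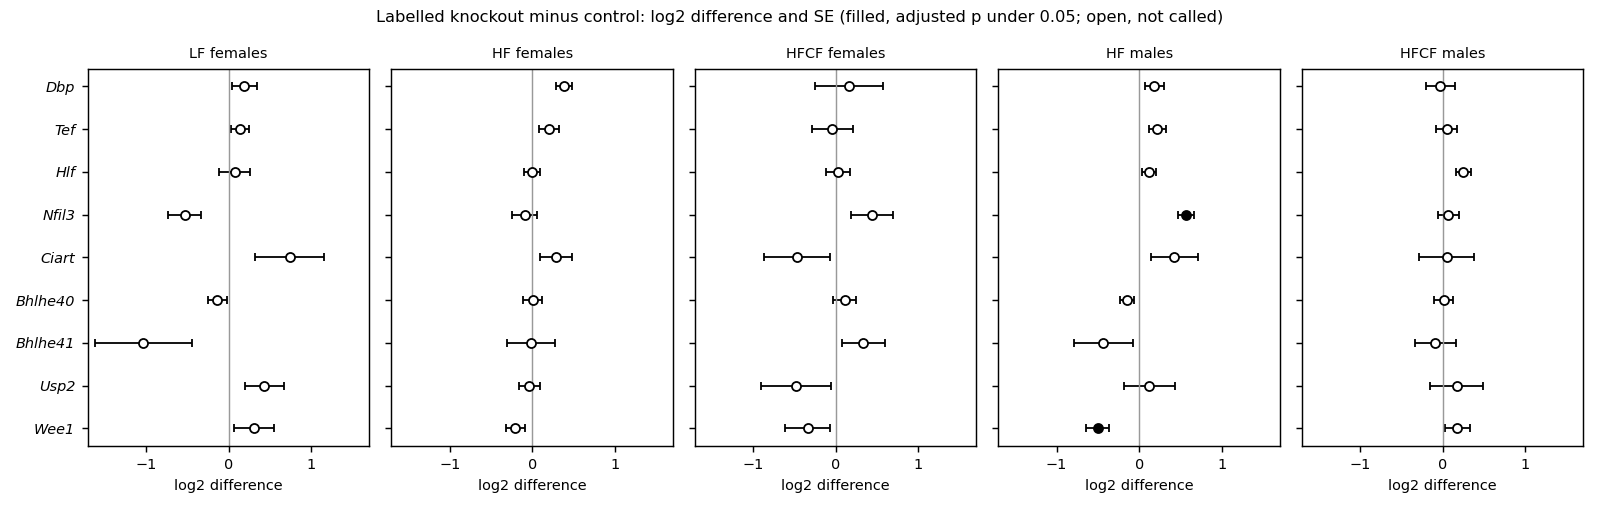
Log2 difference (horizontal axis) and SE between labelled knockouts and controls for the 9 output genes in the 5 sex and diet settings; filled points are called. Only Nfil3 (right of 0) and Wee1 (left of 0) in HF males are filled.

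Males and females were compared at matched diet and vector. The labels number all males below all females, so sex and any difference in time of handling or collection cannot be told apart. In HF controls 5 of 9 members were lower in males (Dbp, Tef, Hlf, Ciart and Usp2) and 0 higher, where 18.1% of 14492 genes were called, 9.58% as lower. Dbp ranged over 103 to 156 CPM with a median of 127 in males, all below the 4 females (log2 difference -0.58 ± 0.12 SE, edgeR adjusted p = 0.00801). Usp2 ranged over 13.1 to 47.01 CPM with a median of 27.4 and Hlf over 79.96 to 101 CPM with a median of 88.6 in the males. The Ciart difference was -1.37 ± 0.27 and the Usp2 difference -1.12 ± 0.25 (log2, SE), with edgeR adjusted p = 0.00567 and 0.00995. Tef and Hlf were -0.59 ± 0.11 and -0.50 ± 0.08, with edgeR adjusted p = 0.0049 and 0.0024. The sexes did not overlap for any of these 5, but they were picked as called, so this adds no separate support. The share of all genes without overlap is not given. With library totals the share of all called genes that were higher in males went from 47.1% to 68.6%, and these 5 kept their calls. The share of all genes called ran from 9.11% (without female replicate 2) to 34.4% (without female replicate 1) when 1 liver was left out.

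HF labelled knockouts had Dbp, Tef, Hlf and Ciart lower and Nfil3 higher in males, 5 of 9, where 14.3% of 14260 genes were called. The Dbp groups did not overlap (log2 difference -0.77 ± 0.11 SE, edgeR adjusted p = 0.000912). Nfil3 was 15.3, 14.9, 14.8 and 14.2 CPM in the 4 females, all below the males (log2 difference 0.47 ± 0.10 SE, edgeR adjusted p = 0.00648). Ciart and Hlf overlapped between the sexes (log2 -1.22 ± 0.26, edgeR adjusted p = 0.00795, and -0.36 ± 0.11, adjusted p = 0.0382), and Hlf was called in 4 of 10 fits that each left out 1 liver. On HFCF, edgeR and DESeq2 called 0 of 9 members between the sexes in controls (2.63% of 15054 genes) and in labelled knockouts (5.4% of 15017), with 0 at an unadjusted p under 0.05 in each. Without female HFCF labelled-knockout replicate 4, Dbp was called lower in labelled-knockout males (edgeR adjusted p = 0.0329). When 1 liver was left out, the share of all genes called ran from 1.2% to 4.24% in controls and from 1.73% to 7.54% in labelled knockouts.

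The difference between the sexes in the HFCF against HF effect was tested directly. edgeR called 0 of 9 members in controls (0.00646% of 15491 genes) and 0 in labelled knockouts (0.013% of 15400), as did DESeq2, with 0 and 5 at an unadjusted p under 0.05. Among labelled knockouts those 5 were Tef, Hlf, Nfil3, Ciart and Wee1, and the term was 1.27 for Ciart (edgeR adjusted p = 0.278). When 1 liver was left out, the share of all genes called ran from 0.0% to 10.8% (without female HF control replicate 1) in controls. In labelled knockouts it ran from 0.0% to 0.279% (without male HF labelled-knockout replicate 6). No member was called in any of these fits. Of the other clock genes on HF, Arntl was higher and Per3 lower in male controls (log2 difference 1.45 ± 0.42 SE, edgeR adjusted p = 0.0319, and log2 -1.18, adjusted p = 5.66e-05). The 15 PAR bZIP targets had 11 lower and 0 higher in males in both HF comparisons, among them Nr1i3 in controls (log2 difference -1.39 ± 0.15 SE, edgeR adjusted p = 0.000126) and Cyp7a1 (log2 difference -2.23 ± 0.25 SE, edgeR adjusted p = 0.000208).

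Livers of the same group varied together in many pairs of these genes. With each group's mean removed from log2 CPM, 23 of 36 pairs of members had a positive and 1 a negative correlation over the 48 livers at an adjusted p under 0.05, by a 2-sided permutation test within groups with 100000 draws and Benjamini-Hochberg adjustment over the 36 pairs. All 24 kept their sign without the 2 farthest livers and within each sex. Tef and Usp2 were closest (Pearson's r = 0.892, Spearman's rho = 0.871, adjusted permutation p = 4.5e-05 and 5.14e-05, and r = 0.88 without the 2 livers farthest from the median of Tef). Dbp and Tef, both PAR bZIP factors, gave Pearson's r = 0.832, Spearman's rho = 0.762, adjusted permutation p = 4.5e-05 and 5.14e-05, and r = 0.738 without the 2 livers farthest from the median of Dbp. Ciart and Usp2 gave Pearson's r = 0.786, Spearman's rho = 0.75, adjusted permutation p = 4.5e-05 and 5.14e-05, and r = 0.726 without the 2 livers farthest from the median of Ciart. The smallest p these draws can give is 1e-05. The same test was not run on pairs of other genes, so whether 24 of 36 is unusual in these livers is not known.

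Nfil3 stood apart from the rest. Its r with the other 8 members lay between -0.495 and -0.183, and Nfil3 and Wee1 were the negative pair (Pearson's r = -0.495, Spearman's rho = -0.465, adjusted permutation p = 0.0153 and 0.0118, and r = -0.485 without the 2 livers farthest from the median of Nfil3). Bhlhe40 was called with Ciart, Usp2 and Wee1 alone, the highest being with Wee1 (Pearson's r = 0.525, Spearman's rho = 0.578, adjusted permutation p = 0.000932 and 0.000655, and r = 0.49 without the 2 livers farthest from the median of Bhlhe40). Bhlhe41 and Wee1 were called by r but not by rank (Pearson's r = 0.434, Spearman's rho = 0.295, adjusted permutation p = 0.0177 and 0.0799, and r = 0.271 without the 2 livers farthest from the median of Bhlhe41). Ranked by the same group-centred r over the 48 livers among 13440 genes, the genes most like Dbp were Pcsk4 (r = 0.846), Tef (0.832), Clcn2 (0.83) and Per3 (0.812). Those most like Nfil3 were Ssr2 (0.714), Mrpl34 (0.688), Cdk2ap2 (0.661) and Hist1h2bc (0.651), and those most like Bhlhe41 were Gnl1 (0.676), Ppp6r1 (0.668), Cyp4v3 (0.661) and Atxn10 (0.647). These rankings are descriptions without a test, and the livers share libraries, depth and scaling across all genes.

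**Figure D5:**
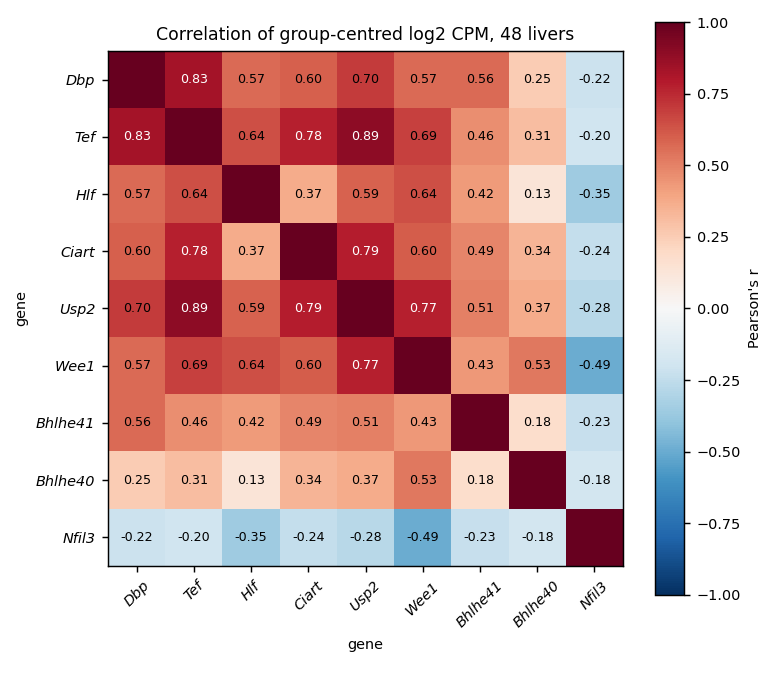
Pearson's r (colour and number) between the 9 output genes (both axes) in group-centred log2 CPM over 48 livers. Tef and Usp2 reach 0.892, and the Nfil3 row is negative with all 8 other genes.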

How the data were processed

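Whole-liver RNA of 48 mice was sequenced as libraries that did not keep strand. The authors deposited 11 tables of pairwise comparisons with read counts per gene, which were joined by gene identifier. The submitters' processing notes name STAR 2.6.1, HTSeq 0.6.1, DESeq2 and the builds GRCm38 and mm10, without roles. The deposited tables also hold FPKM values, which were not used, and a normalised signal that equals the count divided by 1 factor per library, per the file headers and the values. Log2 fold changes and p-values of the authors' deposited comparisons were used only where named. Coordinates equal those of GENCODE M21 for 28455 of 29210 genes. There were 0 columns of per-sample values without a sample.

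Counts were tested with edgeR 4.0.16 (R 4.3.3, limma 3.58.1), using the quasi-likelihood F test with TMM factors, the default filter on low counts and Benjamini-Hochberg adjustment over all genes tested, fitted on the groups of each comparison. The 17 comparisons and 7 interactions were repeated with DESeq2 1.42.0 and other settings, and the code was tested on simulated data. Correlations used log2 CPM with a prior count of 1, centred by group. Library totals of 15338239 to 22072884 counts set the precision, which is least for Bhlhe41. The labels give separate mice, so n counts animals. Mouse numbers run in clusters within some groups, and whether those mice were kept or collected together is not given. All 9 members are named; of 18 other clock genes and 15 targets, up to 4 called genes with the largest change are named per comparison. The members and lists, cell type markers included, were chosen with earlier results of these data known.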

Additional observations from a re-analysis of the deposited data

Results flagged for a closer look

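Within groups of 4 to 6 livers, 5 of 90 combinations of member and group held 1 liver whose gap to its nearest neighbour was large against the group's range by Dixon's 95% criterion, which chance meets in about 1 in 20 groups. Dbp was 62.6 CPM in male HFCF labelled-knockout replicate 3, against 86.7 in the next liver. Ciart was 12.7 CPM in female HF control replicate 1, against 19.7 in the next. Bhlhe40 was 210.05 CPM in male HF labelled-knockout replicate 3, against 168 in the next, and 131 CPM in female LF labelled-knockout replicate 4, against 164 in the next. Wee1 was 14.3 CPM in female LF control replicate 3, against 10.5 in the next.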

How the results depend on the processing

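Of 43 called member differences, DESeq2's Wald test kept 43 and added 15, DESeq2 size factors kept 43 and added 1, testing without a filter on low counts kept 43 and added 10, and all 10 groups in 1 fit kept 37 and added 10. Library totals without scaling factors, an alternative chosen after seeing the data, kept 35 and added 1. No called member changed sign, and the cause of each change was not tested. Counts of called members that moved over 1.5 times were as follows. With all 10 groups in 1 fit, 1 member instead of 2 was called for the labelled knockout in HF males, and 3 instead of 5 for males against females in HF labelled knockouts. HF against LF in control females gave 4 without the filter, 4 with all groups and 6 by the Wald test instead of 2, and labelled-knockout females gave 2, 2 and 6 instead of 0. HFCF against LF gave 3 with library totals instead of 5 in controls, and 5 without the filter and 5 by the Wald test instead of 3 in labelled knockouts. HFCF against HF in control females gave 3 with library totals instead of 5.

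Leaving out 1 liver at a time gave 1 to 3 called members for the labelled knockout in HF males, 0 to 1 in HFCF males, 1 to 3 and 0 to 2 for HF against LF in control and labelled-knockout females, 2 to 4 and 1 to 5 for HFCF against LF, and 4 to 6, 5 to 7, 5 to 7 and 5 to 7 for HFCF against HF in control and labelled-knockout females and control and labelled-knockout males. Males against females gave 5 to 5 and 4 to 7 on HF in controls and labelled knockouts and 0 to 1 in HFCF labelled knockouts, the labelled-knockout effect by sex on HF gave 0 to 1, and each of the other comparisons and interactions gave 0 to 0. The correlations called numbered 26 with DESeq2 size factors and 24 with a prior count of 5, against 24.

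Replicate numbers in the labels paired livers in none of 13 comparisons, since no comparison had every pair's correlation of deviations over 0.1. As a replicate block, the number kept 26 called differences, lost 7 and added 4. The block gave 0 called members instead of 5 for HFCF against HF in control females, 3 instead of 5 for HFCF against LF in controls and 5 instead of 3 in labelled knockouts. In both comparisons of control females only 3 pairs of livers share a number. Few livers were then left to estimate the spread, and losses of calls there say little about the result. Depth limits Bhlhe41 most, with 1 to 128 reads per library.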
